A study of Mus musculus with 5 samples.

Results

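Brain was the tissue with the largest set of RNA polymerase II peaks in a series of 5 adult mouse tissues, and its polymerase landscape was set against kidney, liver, lung and spleen, pooled and singly. The members were the positions in the brain peak list, each extended by 250 bp to both sides, with overlapping windows merged. This gave 88467 brain windows from 91712 positions, covering 45.8 Mb, of 186413 regions when the lists of all 5 tissues were merged in the same way. Each read was assigned to a window by its 5′ end. All groups were freshly dissected tissue of FVB mice, crosslinked with formaldehyde, sheared, and immunoprecipitated with the same antibody against polymerase II (ab5408), with 1 library for brain and 1 each for kidney, liver, lung and spleen. The labels do not say how many animals, or of which sex, gave each gram of tissue, and no dissection of brain regions is stated.

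RNA polymerase II transcribes all protein-coding genes and most microRNA genes. In chromatin immunoprecipitation its density is usually highest just downstream of an active gene's start, where it pauses, and a lower density runs through the gene body and past its end while it elongates and terminates. Brain is a mixture of neurons, astrocytes, oligodendrocytes, microglia and vessel cells, so in such a sample a larger share of cells using a site and more polymerase per cell cannot be told apart.

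The deposited coordinates fit assembly mm9, as judged by chromosome extents: the last reads on chromosome 1 lay between 197193734 and 197195269 across the libraries. Neither a genome nor an annotation of that assembly was used, so windows and runs are given by their deposited position without gene names, the marker genes of brain cell types were not counted, and the tissue label was not checked against them. With 1 library per tissue no test between tissues was possible. Fold intervals are 95% exact conditional binomial intervals of the read counts, which cover counting error only, and reads lacking molecular identifiers need not stem from separate molecules.

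Some of the leading brain windows lay close together, and others stood apart. They were ranked by the lower bound of the fold over the next highest tissue, which was chosen with counts under 3 set to 3 while the bound used the counts as they stood, so a spleen count of 0 ranked high. The first 10 comprised 3 windows close together on chromosome 14, 2 next to each other on chromosome 2, and 1 each at 5 further places on chromosomes 1, 2, 12, 13 and 14. With the next tissue taken from the counts as they stood, a choice made after the values were seen, 8 of these 10 remained, and the other two, on chromosome 14 from 94289591 and on chromosome 2 from 32707591, were at ranks 11 and 121. All 10 held a peak in the brain list alone, as did 92.0% of all brain-high windows (defined below). Of the 10, 6 belonged to runs of brain-high windows, against 36.3% of all brain-high windows.

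At the leading windows the other 4 libraries were close to empty. The window on chromosome 13 from 54859551 to 54860051 held 150 brain reads, against 6 from kidney, 4 from liver, 2 from lung and 4 from spleen. In normalised reads brain was 23.4-fold over kidney (10.5 to 64.9). The first window of the pair on chromosome 2, from 25144441 to 25144941, held 107 brain reads, against 1 from kidney, 2 from liver, 5 from lung and 2 from spleen. The second, from 25145791 to 25146291, held 152 brain reads, against 8 from kidney, 6 from liver, 9 from lung and 5 from spleen, 17.8-fold over kidney (8.82 to 42). These windows were picked for a large fold, which the intervals do not cover.

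The 3 neighbouring windows on chromosome 14 shared the same pattern. That from 65208746 to 65209246 held 114 brain reads, against 1 from kidney, 6 from liver, 1 from lung and 2 from spleen, 24-fold over liver (10.7 to 66.7). That from 65211796 to 65212296 held 127 brain reads, against 2 from kidney, 6 from liver, 1 from lung and 5 from spleen, 16.6-fold over spleen (6.95 to 52.1). That from 65210946 to 65211446 held 69 brain reads and at most 2 in each other library. All 3 belonged to a run, described further on, which had the largest fold of all runs.

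Some leading windows stood alone and were sharp, and others sat in broad signal. The window on chromosome 1 from 50983996 to 50984496 held 124 brain reads, against 7 from kidney, 3 from liver, 5 from lung and 1 from spleen, 16.6-fold over kidney (7.83 to 42.2). Its read density in brain was 34.7 times that of the flanks 1 to 5 kb away. The window on chromosome 12 from 103792981 to 103793481 held 72 brain reads, against 1 from kidney, 4 from liver, 1 from lung and 2 from spleen, and its density in brain was 18.5 times that of its flanks. At the pair on chromosome 2 this ratio was 2.49 and 3.67, but each window of the pair lay in the flanks of the other, which lowers both ratios. The run that held the pair, from 25142591 to 25154141, had at least 51.1 normalised brain reads per kb in each of 5 equal parts. The window on chromosome 14 from 94289591 to 94290091 held 64 brain reads, against 3 from kidney, 5 from liver, 2 from lung and 0 from spleen. The window on chromosome 2 from 32707591 to 32708091 held 36 brain reads, against 4 from kidney, 4 from liver, 5 from lung and 0 from spleen.

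**Figure D1:**
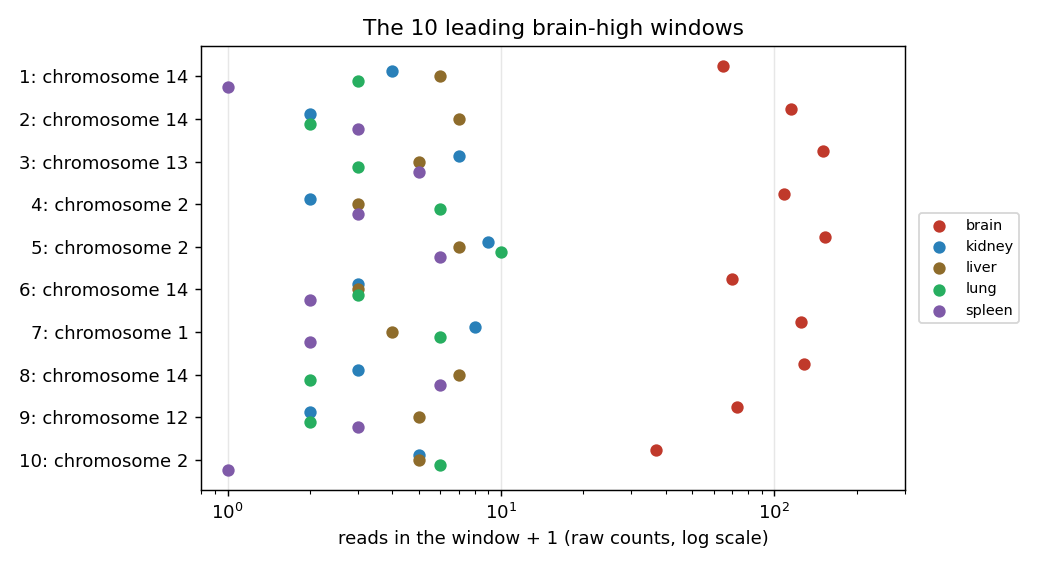
Raw reads plus 1 (log scale) in each of the 10 leading brain-high windows, with 1 point per library, brain in red. Brain lies between 36 and 152 reads in each window and the other libraries at 0 to 9.

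Over the whole set, brain windows were mostly thinly covered and few stood far above the other tissues. The median brain window held 13 brain reads (quartiles 10 and 18), and 18800 windows (21.3%) held at least 20. A window was called brain-high when it held at least 20 brain reads and brain exceeded every other library 4-fold or more in normalised reads, where a count below 3 was raised to 3. Normalised reads are counts divided by a factor per library, the median ratio over windows with at least 20 reads in every library. This gave 1053 brain-high windows, 5.6% of those with 20 reads, of which 72 reached 8-fold, 170 held at least 50 brain reads and 14 at least 100. Because brain peaks were called on brain reads, part of any brain excess at them is built in, and these counts are descriptions.

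The number depended on the scaling of the libraries. With libraries scaled by total reads, 2239 windows were brain-high, 11.9% of those with 20 reads, and 1040 of the 1053 were among them. With scaling by reads in 10 kb bins without a peak of any tissue it was 2685, or 14.3%. The scalings differed most for spleen: its factor was 0.672 from ratios, 1.06 from total reads and 1.28 from such bins, against 1.03, 0.823 and 0.742 for brain. Under the ratio scaling, with counts under 3 set to 3, the runner-up library was spleen in 690 of the 1053 windows, and in 381 of these it held 3 reads or fewer. By the counts as they stood it was spleen in 486, kidney in 287, liver in 146 and lung in 134. Of the 2239 windows by total reads it was lung in 755, spleen in 636, kidney in 514 and liver in 334. At brain-high windows outside runs, spleen had 9.5 normalised reads per kb at the centre and 8.31 in the surrounding 50 kb to both sides outside all peaks. Kidney had 8.39 and 5.23, liver 6.11 and 4.20, and lung 6.74 and 3.58. Brain had 64.8 at the centre and 5.70 in those surroundings. The call required brain to be high and the other libraries low at these centres, so the centre values are descriptions.

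Set against the tissues singly, brain windows departed most often from liver. Of the 18800 windows with 20 brain reads, 5808 (30.9%) were at least 4-fold higher in brain than in liver, 3928 (20.9%) than in lung, 2844 (15.1%) than in spleen and 2774 (14.8%) than in kidney. Over the other 4 pooled, 2676 windows (14.2%) were at least 4-fold higher, and 1623 of these missed the mark against at least 1 single tissue. With total-read scaling the order changed: 8330 windows (44.3%) passed against spleen, 6659 (35.4%) against liver, 4184 (22.3%) against kidney and 3777 (20.1%) against lung, and 4232 (22.5%) against the pool. With bins without peaks 11670 (62.1%) passed against spleen, 7473 (39.8%) against liver, 4463 (23.7%) against kidney, 3947 (21%) against lung and 4871 (25.9%) against the pool. Brain was 4-fold higher than none of the 4 tissues at 11405 windows. In the other direction, of brain windows with 20 reads in the tissue named, brain was at least 4-fold lower than liver at 492 of 11725, than kidney at 368 of 14633, than lung at 316 of 12474 and than spleen at 183 of 4777. By total reads these counts were 362 for liver, 108 for kidney, 359 for lung and 24 for spleen, and with bins without peaks they were 265, 87, 314 and 9 in the same order.

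**Figure D2:**
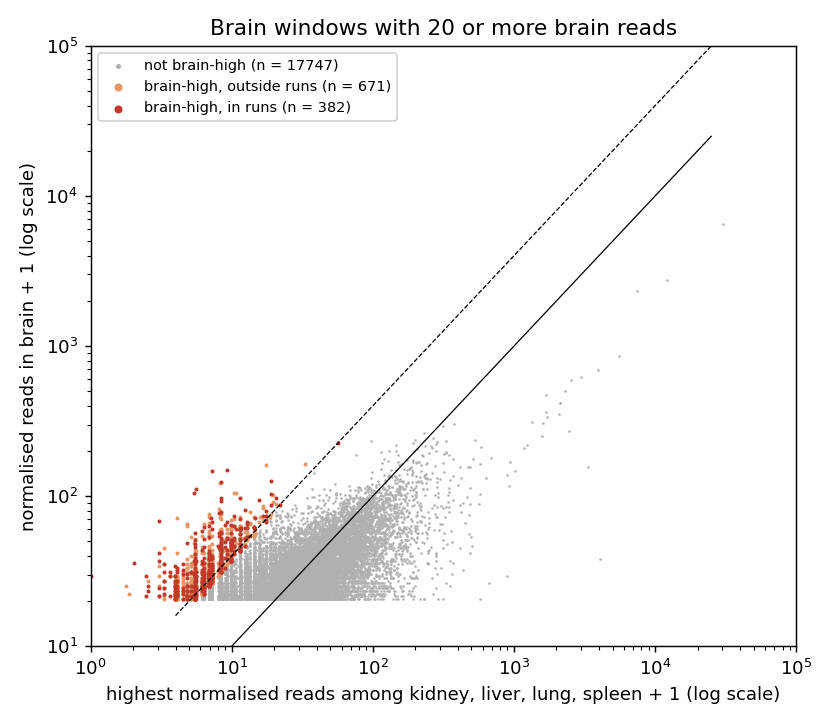
Normalised reads plus 1 in brain (y axis) against the highest of the other 4 tissues (x axis), both on log scales, for the 18800 brain windows with 20 or more brain reads. The solid line marks equal values and the dashed line 4-fold; the 1053 brain-high windows (orange outside runs, red in runs) lie above the dashed line, mostly at the left, where the other tissues hold few reads.

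Values near the thresholds showed no gap. The window just inside had a fold of 4, with 55 brain reads and 9 in the next tissue, and the window just outside had 3.99, with 29 and 8. Between 4-fold and 4.5-fold lay 299 of the brain-high windows, and 303 windows lay between 3.5-fold and 4-fold. The lower bound of the fold interval reached 4 in 55 windows and 2 in 553. The next tissue was again chosen with counts under 3 set to 3, while the bounds used the counts as they stood. Bounds over a next tissue with under 3 reads can thus be too high. The window on chromosome 2 from 32707591 had a lower bound of 6.07 over spleen but 3.1 over lung. The median brain-high window held 30 brain reads (quartiles 24 and 42), against 4 from kidney, 4 from liver, 3 from lung and 3 from spleen.

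Most brain-high windows held a peak in the brain list alone. This was so for 969 of the 1053 (92.0%), and 3 had a peak in all 5 lists. Among windows with 20 brain reads, the share that was brain-high was 24.9% where brain alone had a peak, 2.70% with 1 other list, 0.514% with 2, 0.150% with 3 and 0.0457% with all 4. Across the same windows, the median log2 ratio of brain over liver was 2.79 where brain alone had a peak and 0.16 where all 5 lists had one. Brain over kidney was 2.23 and 0.06, over lung 2.66 and 0.14, and over spleen 1.71 and 0.25. By total reads the values were 2.99 and 0.36 for liver, 2.74 and 0.57 for kidney, 2.6 and 0.08 for lung, and 2.69 and 1.23 for spleen. The ratio factors come from windows with at least 20 reads in every library. Small ratios where all lists have a peak are thus partly built in. Membership in the lists and the read counts come from the same libraries, so the shares and ratios are not independent of the lists. The 3 brain-high windows with a peak in all lists, picked for that after the values were seen, held far more reads in the other tissues than the rest did. The window with the most brain reads of all 1053, on chromosome 2 from 155644701 to 155645201, held 232 brain reads, against 47 from kidney, 28 from liver, 63 from lung and 24 from spleen, 4.05-fold over lung (3.06 to 5.44). The window on chromosome 7 from 51615446 to 51615946 held 168 brain reads, against 30 from kidney, 38 from liver, 36 from lung and 14 from spleen, 5.14-fold over lung (3.57 to 7.58). Also on chromosome 7, that from 107993406 to 107993906 held 57 brain reads, against 13, 9, 15 and 7 in the same order.

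Positions shared by all 5 lists formed 8641 regions, which were chosen alike for every tissue. There brain, like each other tissue, was rarely far from the rest. By the ratio scaling over all regions it was 4-fold higher than each other tissue in 1, the second of the windows just given, and 4-fold lower than each in 5. Of these 5, the region on chromosome 6 from 129130501 to 129131106 held 19 brain reads, against 125 from kidney, 731 from liver, 142 from lung and 117 from spleen. Another, from 29167071 to 29167646 on chromosome 7, held 21 brain reads and 117 to 232 in the others, and that from 148401231 to 148402516 held 15 and 54 to 152. The region on chromosome 8 from 25548941 to 25549581 held 8 brain reads and 25 to 145 in the others, and that on chromosome 15 from 98860216 to 98861041 held 18 and 54 to 199. By total reads 1 region was higher and 2 were lower in brain. By ratios, kidney was 4-fold higher than each other tissue in 3 regions and lower in 0. For liver these were 39 and 1, for lung 5 and 1, and for spleen 8 and 3. By total reads they were 1 and 0 for kidney, 39 and 0 for liver, 24 and 0 for lung, and 0 and 28 for spleen. By ratios brain was the highest library in 1573 of the 8641 regions (18.2%), against 2562 (29.7%) for liver and 1104 (12.8%) for kidney. With total reads brain was highest in 2670 (30.9%), against 3434 (39.7%) for lung.

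Set against the same call in the other tissues' own windows, with one scaling over all regions, brain had 1091 high windows of 18800 with 20 reads (5.80%). The kidney share was 5.98%, that of liver 14.99%, that of lung 1.33% and that of spleen 10.3%. With total reads the share was 11.9% in brain, against 5.64% of kidney, 15.7% of liver, 3.58% of lung and 2.97% of spleen windows, so the place of brain among the tissues followed the scaling.

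Part of the brain-high windows lay side by side in runs. Joining those with gaps of up to 5 kb gave 661 places, of which 83 were runs of at least 3 windows, holding 382 of the 1053 brain-high windows (36.3%). The runs lay on 17 chromosomes with a median span of 6.85 kb and a longest span of 27.6 kb. The median run held 46.0 normalised brain reads per kb, against 6.57 from kidney, 5.06 from liver, 5.38 from lung and 10.4 from spleen. Just 2 runs held a region with a peak in all 5 lists, and 13 had such a region within 20 kb.

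The 6 runs with the most brain-high windows lay on chromosomes 2, 7, 17 and 19. The longest in windows, on chromosome 2 from 136596221 to 136617371, joined 15 brain-high windows over 21.2 kb and held 783 brain reads, against 77 from kidney, 114 from liver, 59 from lung and 115 from spleen. It was 4.46-fold over spleen (3.66 to 5.47) by the ratio scaling and 8.79-fold by total reads. When the run was cut into 5 equal parts, brain density was 50.2 normalised reads per kb in the last and 28.3 in the middle part, and it was 3.70 at 10 to 20 kb beyond that end and 25.4 at the same distance before its start. Brain reads thus stayed high below the run and were low above it.

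The run on chromosome 17 from 27566256 to 27593856 was 27.6 kb long, with 1300 brain reads, against 166 from kidney, 192 from liver, 146 from lung and 250 from spleen, 3.41-fold over spleen (2.97 to 3.92). With total reads a run of 89.5 kb, from 27559656 to 27649106, took in this run and another of the ratio scaling, from 27643356 to 27649106. The longer run had 49 brain-high windows and 3568 brain reads, 6.13-fold over spleen (5.67 to 6.64). The other 4 libraries held 437 to 751 reads over the longer span.

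The first run on chromosome 7, from 25771336 to 25791086, held 857 brain reads, against 86 from kidney, 97 from liver, 87 from lung and 118 from spleen, 4.76-fold over spleen (3.92 to 5.82). A region with a peak in all 5 lists lay 13.4 kb from it, the nearest such region of the 6 runs. The run on chromosome 19 from 6519436 to 6528736 held 634 reads in brain, against 82 from kidney, 67 from liver, 80 from lung and 73 from spleen. At 10 to 20 kb beyond its upper end brain had 13.5 normalised reads per kb and kidney 26.2. Nearer to that end, a window from 6534986 to 6535486, held 96 brain and 84 kidney reads, with 6 in liver, 8 in lung and 6 in spleen.

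The second run on chromosome 2, from 121125641 to 121137391, was the densest of the 6, at 70.7 normalised brain reads per kb, against 12.7 from kidney, 4.86 from liver, 9.87 from lung and 12.3 from spleen. Brain density was 101 per kb in the last of 5 equal parts. At 10 to 20 kb it was 12.3 beyond that end and 11 before the start, so it was low on both sides. The second run on chromosome 7, from 53652841 to 53667991, held 676 brain reads, against 86 from kidney, 80 from liver, 82 from lung and 114 from spleen. Its brain density was highest in the first of 5 equal parts, 57.6 per kb, and 4.29 per kb at 10 to 20 kb before its start, where spleen had 9.37. Runs were joined from windows called on the brain excess, so their folds are descriptions.

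**Figure D3:**
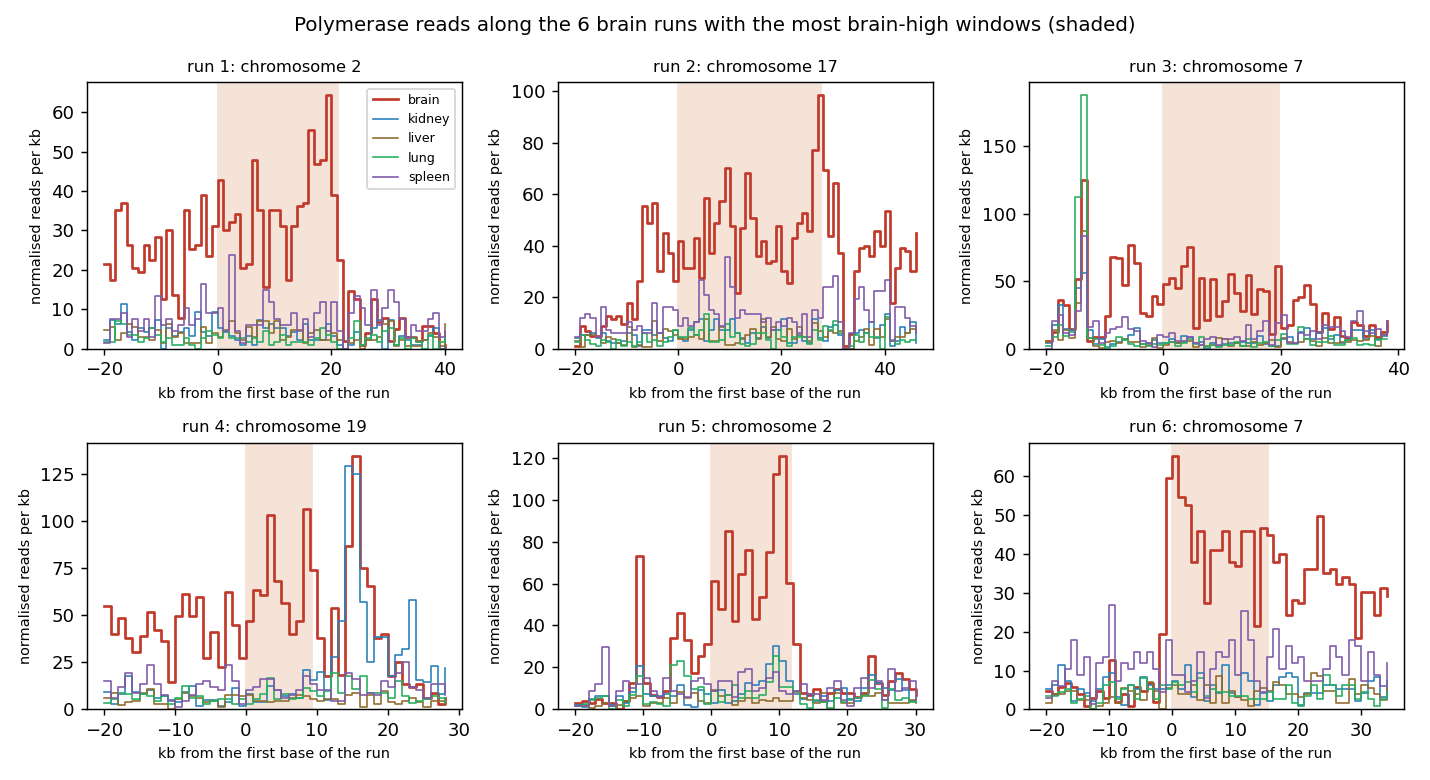
Normalised reads per kb in 1-kb bins along the 6 brain runs with the most brain-high windows, from 20 kb before to 20 kb beyond each run (shaded), brain in red. At 10 to 20 kb before and beyond the first run on chromosome 2, brain is at 25.4 and 3.70 in these units. At the second run there it is at 11 and 12.3. It is at 30.1 and 14.7 at the first run on chromosome 7 and at 4.29 and 30.2 at the second. At the run on chromosome 17 it is at 8.19 and 36.8, and on chromosome 19 at 39.5 and 13.5. A kidney and brain peak stands beyond the run on chromosome 19.

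The run with the largest fold, a choice made after the values were seen, was that on chromosome 14 from 65206046 to 65214646, which held the 3 leading windows there. It was 8.60 kb long, with 1148 brain reads, against 36 from kidney, 47 from liver, 34 from lung and 42 from spleen. It was 17.9-fold over spleen (13.2 to 25), whereas the median over the 83 runs was 4.52 and the lowest 2.20. By total reads it was 35.3-fold over the next highest tissue, against a median of 7.34 and a lowest fold of 3.75. The next highest tissue by the ratio scaling was spleen in 71 runs, kidney in 11 and lung in 1. By total reads it was lung in 35, spleen in 26, kidney in 13 and liver in 9. By total reads the run with the fourth most windows, also picked afterwards, lay on chromosome 12 from 110778921 to 110834271. It held 1733 brain reads, against 236 from kidney, 348 from liver, 207 from lung and 406 from spleen, 5.51-fold over spleen (4.94 to 6.15) by total reads and 2.80-fold by the ratio scaling. Within it, separate runs of the ratio scaling went from 110795621 to 110810821 and from 110820221 to 110829321.

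As a class, brain-high windows outside runs stood out more from their flanks than those in runs, although single run windows, such as that on chromosome 13 with a ratio of 13.5, were sharp. Outside runs, the summed brain density at the centre was 3.47 times that 1 to 5 kb away (671 windows), in runs it was 1.82 times (382 windows), and at windows with a peak in all 5 lists and 20 brain reads that were not brain-high it was 6.85 times (6565 windows). Over all 18800 brain windows with 20 brain reads it was 3.51 times. At the same brain-high windows outside runs the kidney ratio was 1.17, that of liver 1.13, that of lung 1.21 and that of spleen 0.894. In runs the ratios were 1.09, 1.17, 1.19 and 0.873 in the same order. The flanks of run windows held 39.0 normalised brain reads per kb, against 18.7 for windows outside runs, which follows in part from how runs were joined.

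**Figure D4:**
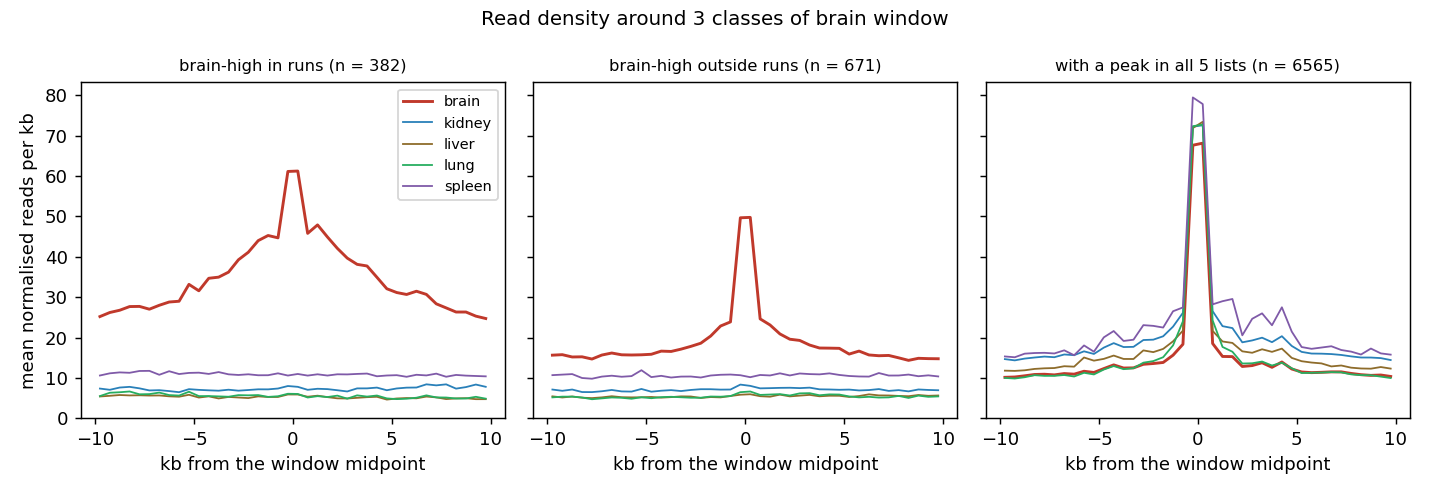
Mean normalised reads per kb in 0.5-kb bins from 10 kb before to 10 kb after the midpoint of 3 classes of brain window, 1 line per library. Brain rises far above the other libraries at brain-high windows, on a broad shoulder in runs and on lower flanks outside them, and all 5 libraries peak where all 5 lists have a peak.

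Peaks of the brain list alone were many and mostly weak. Of the 88467 brain windows, 42800 (48.4%) overlapped no window of another list, and brain shared 36.4% with kidney, 35.9% with lung, 23.9% with liver and 16.2% with spleen. The lists of these tissues held 78414 windows in kidney, 70567 in lung, 55887 in liver and 31139 in spleen. The shares fell in the same order as these lengths, so they do not rank the tissues by likeness to brain. Windows found in a single list made up 33.7% of the kidney, 38.1% of the liver, 30.8% of the lung and 36.4% of the spleen windows. Brain-only windows held a median of 11 brain reads (quartiles 9 and 14), against 5 in kidney and 4 each in liver, lung and spleen, while brain windows shared with another list held 15. At least 20 brain reads stood in 3886 brain-only windows (9.08%), against 18.4% of kidney-only, 33.6% of liver-only, 6.42% of lung-only and 5.74% of spleen-only windows with 20 reads of their own library. Where all lists were cut to the length of the shortest, keeping the positions with most reads, 41.7% of brain windows were brain-only. This share was not computed for the other tissues, so it cannot be set against their shares from full lists.

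A peak in the brain list alone did not mean that the other tissues were empty. Kidney had no read in 1393 brain-only windows (3.25%), liver in 1413, lung in 2422 and spleen in 1172. By the ratio scaling brain was the highest library in 33500 brain-only windows (78.3%), spleen in 6244, kidney in 2325, liver in 383 and lung in 348, and by total reads brain was highest in 95.4%. Of the 3886 with 20 brain reads, 969 were brain-high. The median brain-only window lay 4.81 kb from a peak of another tissue, and the median brain-only window that was brain-high lay 10.6 kb away.

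The brain-only windows with the most brain reads were 3 of the leading windows above, on chromosomes 2, 13 and 14, and 2 others. On chromosome 3, the window from 88034186 to 88035186 held 128 brain reads, against 10 from kidney, 13 from liver, 7 from lung and 12 from spleen, 6.99-fold over spleen (3.86 to 13.9). On chromosome 9, the window from 3015896 to 3016396 held 141 reads in brain but 259 from kidney, 231 from liver, 184 from lung and 600 from spleen. This window, near the start of its chromosome, was brain-only by the lists and lowest in brain by its reads.

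**Figure D5:**
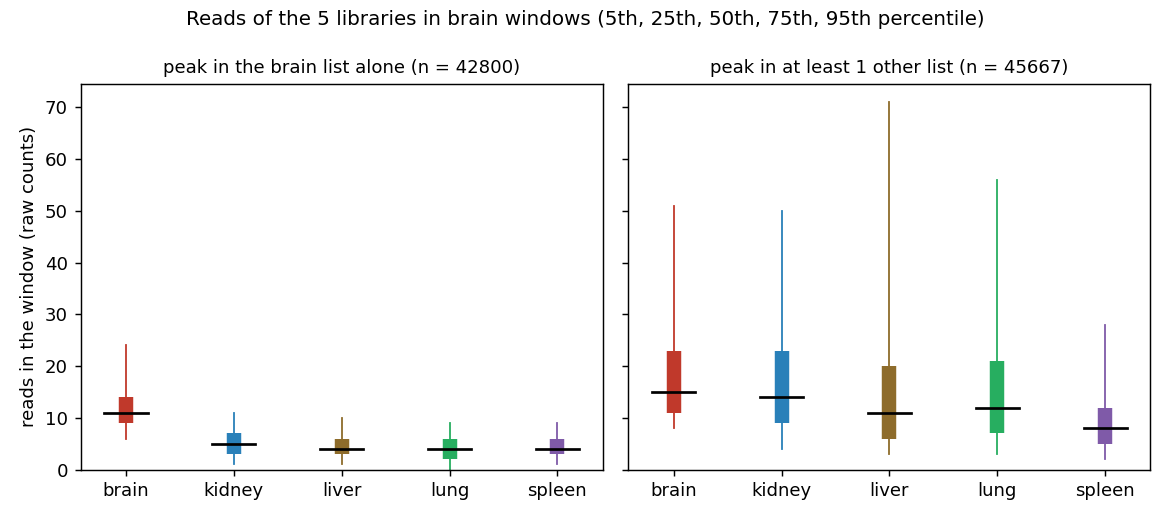
Raw reads per library in brain windows with a peak in the brain list alone (left, 42800 windows) and with a peak in at least 1 other list (right, 45667 windows). Thin lines run from the 5th to the 95th percentile, thick bars from the 25th to the 75th, and black marks are medians, 11 in brain against 4 or 5 elsewhere on the left.

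Windows on the X chromosome were thinner, and more often in a single list, than those elsewhere in brain and in every other tissue. The brain list had 4310 of its positions (4.70%) on X, against 2.95% of kidney, 3.37% of liver, 3.29% of lung and 4.44% of spleen positions, although X held 3.002% of brain reads and 3.33% to 4.21% of reads in the other libraries. Of the 4183 brain windows on X, 62.5% were brain-only, against 47.7% on the other chromosomes. The X share in a single list was 41.9% of kidney, 49.1% of liver, 42.7% of lung and 54.96% of spleen windows, against 33.4%, 37.7%, 30.4% and 35.5% on their other chromosomes. Brain windows on X held a median of 7 brain reads, against 13 elsewhere. In kidney the medians were 10 and 16, in liver 11 and 19, in lung 8 and 13, and in spleen 10 and 14. Of the brain windows on X, 237 had at least 20, of which 4 were brain-high (1.69%). On chromosome 2 the same share was 132 of 1597 (8.27%) and on chromosome 4 it was 31 of 1133 (2.74%). By total reads it was 20 of 237 on X (8.44%), 14.7% on chromosome 2 and 7.33% on chromosome 4, which put X above chromosome 4. The sex of the mice is not given in the labels. The Y chromosome held 101 reads in brain and 104 to 245 in the other libraries, and what these say of sex was not tested.

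Brain-high windows lay in a part of the genome's 1 Mb bins. Of 2191 bins of 1 Mb that held a brain window, 371 held a brain-high window and the 49 with the most held 50% of them. The 18800 windows with 20 brain reads, a far larger set, lay in 1772 bins, and 214 bins held 50% of them. Chromosome 11 from 118 to 119 Mb and chromosome 6 from 113 to 114 Mb had 31 each, of 155 and 97 windows with 20 brain reads. Windows shared by brain and a single other tissue, both with at least 20 reads and 4-fold over the remaining 3, were rare. There were 13 with kidney, 4 with lung, 1 with liver and 1 with spleen. By total reads there were 11 with kidney, 27 with lung, 5 with liver and 1 with spleen. Of all brain windows, 14633 held at least 20 kidney reads, 12474 lung, 11725 liver and 4777 spleen reads. The sets that could be called thus differed in size, and these counts do not rank the tissues by likeness to brain. The window with liver lay on chromosome 4 from 97577501 to 97578001, with 21 brain and 35 liver reads, and that with spleen on chromosome 5 from 121129301 to 121129801, with 34 brain and 26 spleen reads. The leading window with lung, on chromosome 4 from 102432681 to 102433181, held 65 reads in brain and 23 in lung, against 4 in kidney, 3 in liver and 2 in spleen.

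The libraries held 10292262 reads in brain and 10846976 to 14964934 in the others, and brain windows took 14.4% of brain reads, 8.13% of kidney, 7.84% of liver, 9.66% of lung and 5.58% of spleen reads. Reads repeating the position and strand of another made up 7.12% in brain and 4.51% to 8.87% in the others. Brain thus had the fewest reads and the longest peak list. How much of the difference in list length follows from reads, from enrichment or from the authors' threshold was not tested.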

How the data were processed

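Per the labels' protocols, each library came from about 1 g of tissue crosslinked with 1% formaldehyde for 10 min, sheared to 0.2 to 0.8 kb and precipitated with 10 µg of antibody, and 10 ng of DNA was sequenced. The authors deposited, per tissue, a list of aligned reads and a list of peak positions with no width or score, both as coordinates. Bowtie was used per the submitters' processing notes; its version and settings, the build, the peak caller and threshold, and whether a control was used, were not given in the sources used here. Reads shorter than 34 or longer than 36 bases (4 to 15 in each library) were dropped.

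Read counts per window were computed here from the deposited reads and divided by medians of ratios over 3493 brain windows with at least 20 reads in every library (8222 regions where all lists were merged). Calls were tested on simulated data with counting error. Known folds were simulated only at windows with a median of at least 20 normalised reads over the libraries. Changed windows with few reads in the other tissues, the usual case among brain-high windows, were thus not covered. The RefSeq tables at hand are on GRCm38.p6, another build. During the work their gene starts were compared with the peak positions, and some windows and runs were tentatively named. That comparison and the names were dropped, and no result given here uses them. Coordinates in the results were not converted, so genes were not named. The planned gene starts, gene bodies and gene lists were not analysed here, and no sequences are shown. The members, lists and thresholds were chosen with earlier results of these data known. The named windows are the 10 brain-high ones with the highest lower bound of the fold, the named runs the 6 with the most windows, and the named brain-only windows the 5 with the most brain reads; other items were chosen after their values were seen. Where the next highest tissue held under 3 reads, no fold is given. Computation used SciPy 1.17.1, pandas 2.3.3 and NumPy 2.4.6 under Python 3.11.15, and plots Matplotlib 3.10.9.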

Additional observations from a re-analysis of the deposited data

How the results depend on the processing

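The 1053 brain-high windows, the 2676 over the pool and the 83 runs became 2239, 4232 and 174 with total reads, and 2685, 4871 and 206 with bins without peaks. With spleen left out, tried after seeing the data, there were 1987 windows, 3308 over the pool of 3 and 155 runs, and 2559, 4018 and 196 with total reads as well. Windows of 100 bp to both sides gave 196, 346 and 10, and of 500 bp 409, 1696 and 18. A minimum of 50 reads gave 170, 282 and 10; a fold of 2 gave 3878, 7283 and 296, and of 8 gave 72, 329 and 1. With no read minimum 4559 windows passed over the pool. Brain-only windows fell to 3886 with at least 20 brain reads and 12764 with lists of equal length, of 42800. One read per position and strand, shifted reads and thinned libraries kept each of the 3 counts within 1.5 times, as did other gaps for runs, and window size and distance for brain-only windows. Folds of the 16 named windows and runs ran from 3.6 to 21.2 with repeats removed and from 6.71 to 33.5 by total reads. Total reads raised the folds of all 6 named runs beyond their intervals. Those of the 10 windows stayed within theirs, several of which are very wide or lack an upper bound. None reversed, but all were picked for an excess in brain. The run with the largest fold moved to 35.3 by total reads, and runs with spleen next highest numbered 26 of 83 instead of 71. The other settings for gene starts and gene bodies were not run, since no gene was counted. No paired analysis was possible because each tissue had 1 library. Depth limits low windows: 18598 of the 88467 held under 10 brain reads.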
